A study of Mus musculus with 2 samples.

Results

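Intraflagellar transport (IFT), the BBSome and cytoplasmic dynein with its cofactors were examined in an RNA immunoprecipitation sequencing (RIP-seq) experiment on adult wild-type mouse testis. Genes were taken by symbol, and 24 of the 4788 genes in the deposited table matched. They belonged to these complexes, their regulators and adaptors, except *Tulp4*, which was taken in as a tubby-like gene. The study made 1 input library from testicular lysate set aside before precipitation and 1 FMRP RIP library from RNA recovered with an anti-FMRP antibody, and both came from wild-type testis with no other treatment. With 1 library in each group there was no replicate check and no test, and no IgG library was used here. Every gene in the table is protein-coding and was called higher in the FMRP RIP by the authors, so the direction of each difference was set by that selection and only its size is described. The size was also cut off from below, since the paper's methods required a fold change of at least 1.5. The lowest ratio over all listed genes was 1.59. The low end, the medians and the ranges therefore describe only genes above that limit. Of 22 marker genes of germ, Sertoli, Leydig, red blood and macrophage cells, only the germ cell gene *Sycp1* was listed, with 10.5 CPM in input RNA against 23.8 CPM after FMRP precipitation, so the tissue label could not be checked against its markers.

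Intraflagellar transport moves building material along the axoneme of cilia and flagella in trains of the IFT-B and IFT-A complexes, with kinesin-2 as the motor toward the tip and cytoplasmic dynein 2 as the motor back to the base. The BBSome is an adaptor that carries membrane proteins on these trains. Cytoplasmic dynein 1 works in the cell body with dynactin, with adaptors that link it to cargo and with LIS1 and NudE proteins, and in spermatids its tracks include the manchette, a microtubule skirt that shapes the head and delivers material to the growing tail. FMRP is an RNA-binding protein found on polyribosomes and in transport granules, and the RIP-seq question was which testis transcripts are recovered with it.

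Values are CPM, which divides the reads of each gene by the library total, which was 30849871 reads for the input and 36506932 reads for the FMRP RIP. CPM is not divided by transcript length, so levels are compared between libraries and not between genes. The ratio is FMRP RIP CPM over input CPM, given with an exact Clopper-Pearson 95% interval from the reads, which covers counting error only. The log2 ratio was taken once a pseudocount of 1 CPM had been added in each library, and a log2 ratio above 1 was the limit for counting a gene. All listed genes took 14.2% of reads in the input library and 55.2% in the FMRP RIP library.

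The most strongly recovered transcripts of the 24 genes were those of the heavy chain of cytoplasmic dynein 1 and of the tubby-like gene *Tulp4*, both close to 8-fold. Those of 3 cargo adaptors followed at 5- to 6-fold. *Ift74* and *Ift81* led the IFT genes at slightly over 4-fold. The IFT-A genes, *Ift172*, *Ift88*, dynactin and the dynein 2 heavy chain lay between 1.70-fold and 3.08-fold, and *Bicd1* and *Ift57* were lowest, at 1.67-fold and 1.69-fold. Of the 24 genes, 20 had a log2 ratio above 1, or 83.3%, where 70.1% of all listed genes did. All 24 reached a ratio of 1.5 with the pseudocount, where 97.3% of all listed genes did. The authors' own fold limit of 1.5 largely set these shares in advance, so they are not a result about these genes. The median log2 ratio of the 24 was 1.51, with quartiles of 1.17 and 1.99, against 1.35 over all listed genes, whose quartiles were 0.92 and 2.0. This order depended on the pseudocount, since the median of the plain ratios was 2.98 for the 24 genes and 3.05 for all listed genes above 0 in the input. The transport genes as a set therefore lay near the middle of the listed genes, and the spread between their members was wider than the distance of their median from it. For the input level of a gene in bulk tissue, fewer cells of a type and less RNA per cell cannot be told apart.

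**Figure D1:**
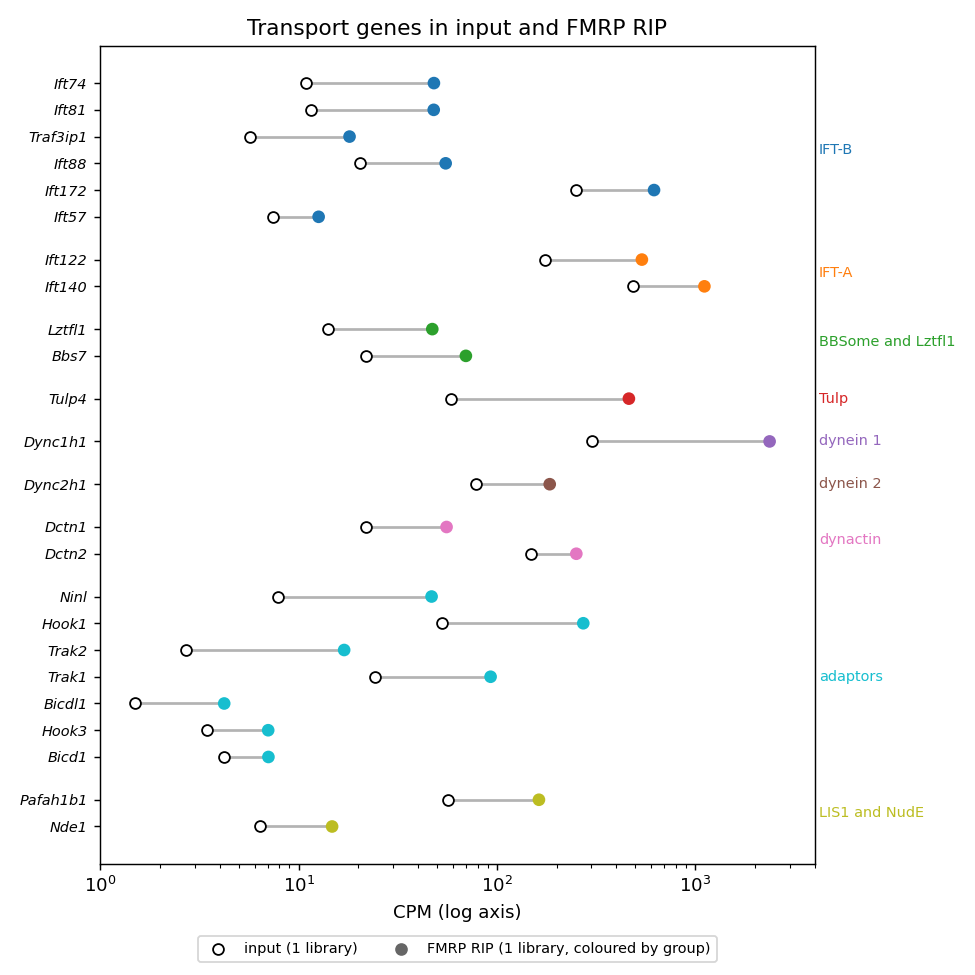
Level of each of the 24 transport genes in the input (open circles) and the FMRP RIP (filled circles, coloured by group), in CPM on a log axis, with 1 library each. The longest lines belong to *Dync1h1*, from 301.0 to 2374 CPM, and *Tulp4*, from 58.9 to 463.3 CPM.

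The 2 listed motor genes had very different recovery. *Dync1h1* (ENSMUSG00000018707, chr12:110601452-110666945), the force-producing heavy chain of cytoplasmic dynein 1, had 301.0 CPM in input RNA and 2374 CPM after FMRP precipitation. Its ratio was 7.89 (95% interval 7.72 to 8.06), its log2 ratio was 2.98, and it ranked 334 of the 4788 listed genes. *Dync2h1* (ENSMUSG00000047193, chr9:6928503-7184446), the heavy chain of the dynein that returns IFT trains to the base, went from 78.4 to 184.8 CPM, a ratio of 2.36 (2.25 to 2.47) and a log2 ratio of 1.23. The ratio of *Dync1h1* was 3.35 times that of *Dync2h1* (95% interval 3.18 to 3.52 from counting error), and such a ratio between genes does not depend on how the libraries are scaled. *Dync1h1* alone carried much of the summed level of the set. The 24 genes summed to 1768 CPM in input RNA and 6526 CPM after FMRP precipitation, a ratio of 3.69, and without *Dync1h1* the sums were 1467 and 4153 CPM, a ratio of 2.83. No other subunit of these motors in the symbol set was listed, neither the intermediate chains *Dync1i1* and *Dync1i2* nor the light intermediate chains *Dync1li1*, *Dync1li2* and *Dync2li1*.

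Dynactin, the cofactor that makes dynein processive, showed lower recovery. *Dctn1* (ENSMUSG00000031865, chr6:83165920-83200117), which encodes the large subunit that contacts microtubules and dynein, had 21.9 CPM in input RNA and 55.8 CPM after FMRP precipitation, a ratio of 2.55 (2.33 to 2.78). *Dctn2*, which encodes the shoulder subunit dynamitin, had 147.9 and 251.6 CPM, a ratio of 1.70 (1.64 to 1.76) and a log2 ratio of 0.76. The intervals of the pair did not overlap, and the ratio of *Dctn1* was 1.5 times that of *Dctn2* (1.36 to 1.64). *Dctn3*, *Dctn4*, *Dctn5* and *Dctn6* were not listed.

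The adaptors spanned the range from near the top of the set to its lowest value. They are coiled-coil proteins that tie dynein, and in the TRAK case also kinesin-1, to a cargo. *Trak2*, which with *Trak1* links mitochondria to motors, had 2.72 CPM in input RNA and 17 CPM after FMRP precipitation, a ratio of 6.24 whose 84 input reads gave a wide interval of 4.96 to 7.93. *Trak1* had 24.4 and 93.0 CPM, a ratio of 3.82 (3.52 to 4.13). The intervals of these paralogs did not overlap, with *Trak2* at 1.63 times the ratio of *Trak1* (1.28 to 2.08). *Ninl*, the ninein-like adaptor of centrosomes, had 7.84 and 46.9 CPM, a ratio of 5.97 (5.22 to 6.86), and its interval overlapped that of *Trak2*.

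The Hook genes were split in the same way. *Hook1* (ENSMUSG00000028572, chr4:95967240-96025413), the gene mutated in azh mice with abnormal sperm heads and needed for the manchette, had 52.9 CPM in input RNA and 272.8 CPM after FMRP precipitation, a ratio of 5.16 (4.90 to 5.44) and a log2 ratio of 2.35. *Hook3* had 3.44 and 7.03 CPM, a ratio of 2.04 (1.63 to 2.59). *Hook1* therefore had a ratio 2.53 times that of *Hook3* (2.0 to 3.19), and *Hook2* was not listed. Among the BICD family, whose members hold Rab-marked vesicles, *Bicdl1* had 1.49 and 4.22 CPM, a ratio of 2.83 that rested on 46 input reads (2.02 to 4.02). *Bicd1* had 4.23 and 7.05 CPM, a ratio of 1.67 (1.35 to 2.08) and a rank of 4583. The intervals of *Bicdl1* and *Bicd1* overlapped slightly, although the interval of the ratio between them, from 1.15 to 2.51, lay above 1. *Bicd2* and *Bicdl2* were not listed.

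The regulators of dynein had ratios under 3. *Pafah1b1*, which encodes LIS1, the protein that binds the dynein motor domain and helps its complexes to assemble, had 56.6 CPM in input RNA and 163.0 CPM after FMRP precipitation, a ratio of 2.88 (2.73 to 3.04). *Nde1*, which encodes a NudE scaffold that brings LIS1 to dynein, had 6.42 and 14.8 CPM, a ratio of 2.30 (1.95 to 2.72). Their intervals just missed each other, and the other NudE gene, *Ndel1*, was not listed. The reference annotation holds 2 pseudogenes named after *Pafah1b1*, and how reads were split between them and the gene was not tested, although the reads of *Pafah1b1* were whole numbers in both libraries.

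**Figure D2:**
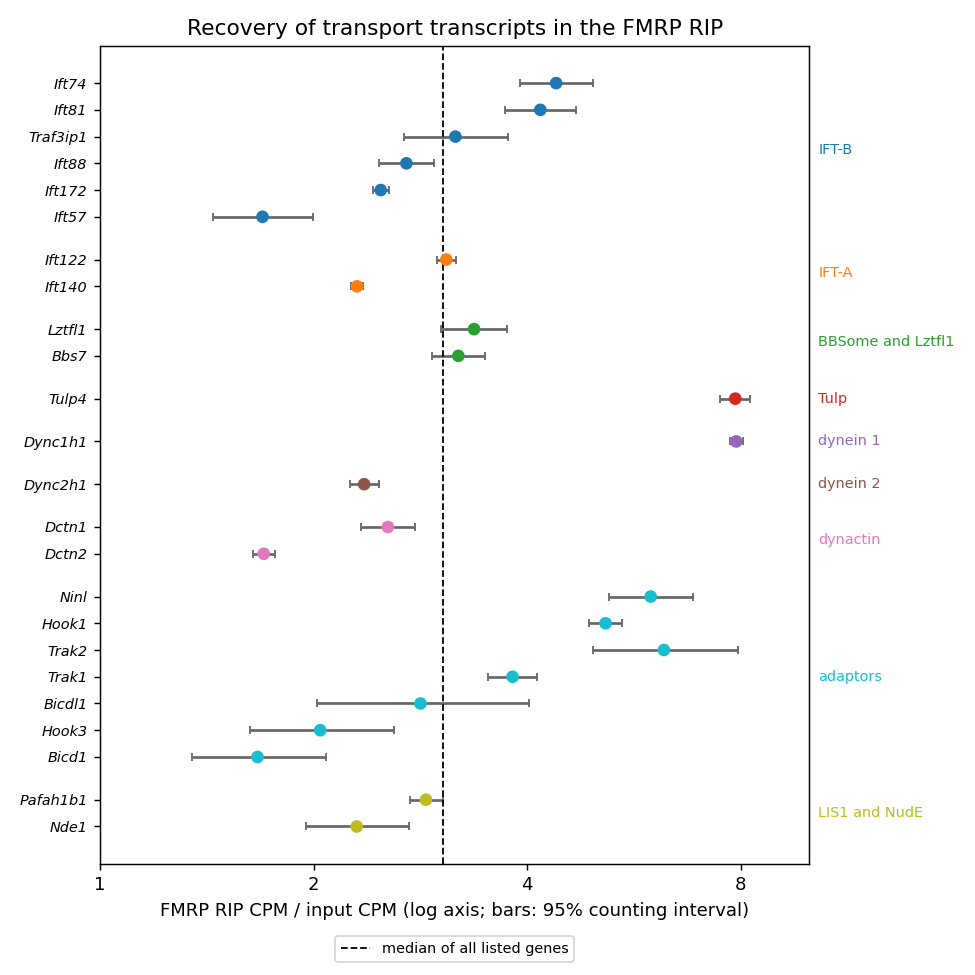
Ratio of FMRP RIP to input CPM for each gene (points, log axis) with its exact 95% interval from counting error (bars), ordered by group, and the median ratio of all listed genes (dashed line, 3.05). *Dync1h1* and *Tulp4* lie near 8, the adaptors spread from 1.67 to 6.24, and *Ift57*, *Dctn2* and *Bicd1* lie lowest.

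IFT-B, the larger of the train complexes, had 6 listed genes, 5 of them with a log2 ratio above 1, and a median log2 ratio of 1.45. Of all listed genes, 70.1% had a log2 ratio above 1. *Ift74* (ENSMUSG00000028576, chr4:94614491-94693229) and *Ift81* (ENSMUSG00000029469, chr5:122550204-122614518) encode partners that pair through coiled coils in the IFT-B core and take part in tubulin transport. *Ift74* had 11.0 CPM in input RNA and 48.2 CPM after FMRP precipitation, a ratio of 4.40 (3.91 to 4.95). *Ift81* had 11.5 and 48.0 CPM, a ratio of 4.18 (3.72 to 4.69). The pair was recovered to nearly the same degree, since the ratio of *Ift74* was 1.05 times that of *Ift81* with an interval of 0.89 to 1.24. *Traf3ip1*, which encodes the peripheral subunit IFT54, had 5.71 and 18.1 CPM, a ratio of 3.17 (2.68 to 3.76), and *Ift88*, a core subunit required for cilium assembly, had 20.4 and 55.2 CPM, a ratio of 2.70 (2.47 to 2.96). These 2 did not differ beyond their counting intervals.

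*Ift172* (ENSMUSG00000038564, chr5:31253277-31291116), which encodes a large peripheral subunit that reaches toward IFT-A at the tip turnaround, had 249.5 CPM in input RNA and 620.3 CPM after FMRP precipitation, a ratio of 2.49 (2.42 to 2.55). *Ift57*, also a peripheral subunit, had 7.46 and 12.6 CPM, a ratio of 1.69 (1.44 to 1.99) and a log2 ratio of 0.69. Among the 6 listed IFT-B genes, *Ift57* alone was under the log2 limit of 1, and the ratio of *Ift172* was 1.47 times its own (1.25 to 1.72). The IFT-B genes *Cluap1*, *Ift20*, *Ift22*, *Ift27*, *Ift46*, *Ift52* and *Ift80* were not listed.

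Both listed IFT-A genes of the symbol set encode WD-repeat subunits of the complex core and were covered by many reads. *Ift122* had 175.1 CPM in input RNA and 538.7 CPM after FMRP precipitation, a ratio of 3.08 (2.99 to 3.17). *Ift140* (ENSMUSG00000024169, chr17:25016085-25099495) had 483.6 and 1113 CPM, a ratio of 2.30 (2.26 to 2.35), and at 14918 it had the most input reads of the 24 genes. With this depth the intervals were narrow and did not overlap, and *Ift122* stood at 1.34 times the ratio of *Ift140* (1.29 to 1.38). The small IFT-A subunit gene *Ift43* was not listed.

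The BBSome was represented by few genes. *Bbs7*, which encodes one of its beta-propeller subunits, had 21.8 CPM in input RNA and 69.8 CPM after FMRP precipitation, a ratio of 3.20 (2.94 to 3.49). *Lztfl1*, which encodes a regulator of BBSome entry into cilia, had 14.0 and 47.3 CPM, a ratio of 3.37 (3.03 to 3.75). The ratios of these genes did not differ beyond counting error, with an interval of 0.92 to 1.2 for the one over the other. The BBSome genes *Bbs1*, *Bbs2*, *Bbs4*, *Bbs5* and *Bbs9* and the chaperonin-like genes *Bbs10* and *Bbs12* were not listed.

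*Tulp4* (ENSMUSG00000034377, chr17:6106437-6251128) belongs to the tubby-like family, in which *Tulp3* is the known carrier of membrane receptors on IFT-A. *Tulp4* had 58.9 CPM in input RNA and 463.3 CPM after FMRP precipitation, a ratio of 7.86 (7.49 to 8.26), a log2 ratio of 2.95 and a rank of 348. Its interval overlapped that of *Dync1h1*, so the order of the 2 highest genes was within counting error. *Tulp1*, *Tulp2* and *Tulp3* were not listed. Reads of *Tulp4*, *Hook3* and *Bicd1* included fractions of a read, and the span of *Tulp4* holds 3 annotated pseudogenes.

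By group, the 7 listed adaptors had a median log2 ratio of 1.89 and a range from 0.62 to 2.44. *Bbs7* and *Lztfl1* together had a median of 1.66, IFT-B 1.45, IFT-A 1.41, LIS1 with NudE 1.3 and dynactin 1.04. Adaptors with more than 5-fold recovery (*Trak2*, *Ninl*, *Hook1*) and with less than 2.1-fold recovery (*Hook3*, *Bicd1*) were in the same group, so the medians do not describe single adaptors. The 12 genes of ciliary transport (IFT, *Bbs7*, *Lztfl1*, *Dync2h1* and *Tulp4*, placed there by its family) had a median log2 ratio of 1.56, and 11 of them were above 1. The 12 genes of dynein 1, dynactin, adaptors, LIS1 and NudE had a median of 1.41, and 9 of them were above 1. These counts were 91.7% and 75%, where 70.1% of all listed genes were above 1. The ciliary transport genes ranged from 0.69 to 2.95 and the dynein 1 genes from 0.62 to 2.98. The upper end of the ciliary range was *Tulp4* alone, and the next gene was *Ift74* at 2.04. *Trak2* at 2.27, *Hook1* at 2.35, *Ninl* at 2.44 and *Dync1h1* at 2.98 lay above *Ift74*.

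The complexes also differed in how many of their genes were listed. The reference annotation (RefSeq, GRCm38.p6) holds 55 protein-coding genes of this symbol set, of which 24 were listed, or 43.6%, where 21.3% of all its protein-coding genes were. A share above 21.3% was not particular to these genes. It was 72.3% for kinesin motors and light chains and 62.5% for axonemal dynein, radial spoke and CFAP genes. For tubulin and microtubule-associated genes it was 40.7%. None of these shares was matched on expression in testis. Of the adaptors 7 of 10 were listed, of IFT-B 6 of 13, of IFT-A 2 of 3, of LIS1 and NudE 2 of 3, of dynactin 2 of 6, of the BBSome group 2 of 9, and of dynein 1 subunits 1 of 5. A gene that was not listed was not called higher by the authors or was not tested by them, and its values were not analysed here. Listed genes had longer spans, with a median of 73.6 kb from gene start to end, than the 31 that were not, with a median of 29.0 kb.

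Span divided the set as follows, in classes chosen after seeing the data. Under 20 kb, 1 of 12 annotated transport genes was listed (*Dctn2*), or 8.33%, where 8.25% of all protein-coding genes of that span were. From 20 to under 50 kb, 6 of 21 were listed, or 28.6%, where 27.6% of all were. At 50 kb or more, 17 of 22 were listed, or 77.3%, where 46.2% of all were. The share of transport genes was thus near that of all genes in the shorter classes and above it in the longest class, with no matching on expression in testis. The 5 long genes that were not listed were *Bbs9*, *Dync1i1*, *Ift80*, *Ift43* and *Dync1i2*. Within the 24 listed genes the log2 ratio had little relation to span (Spearman's rho 0.06) or to input CPM (Spearman's rho 0.22), as a description across 24 genes that share the same 2 libraries.

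**Figure D3:**
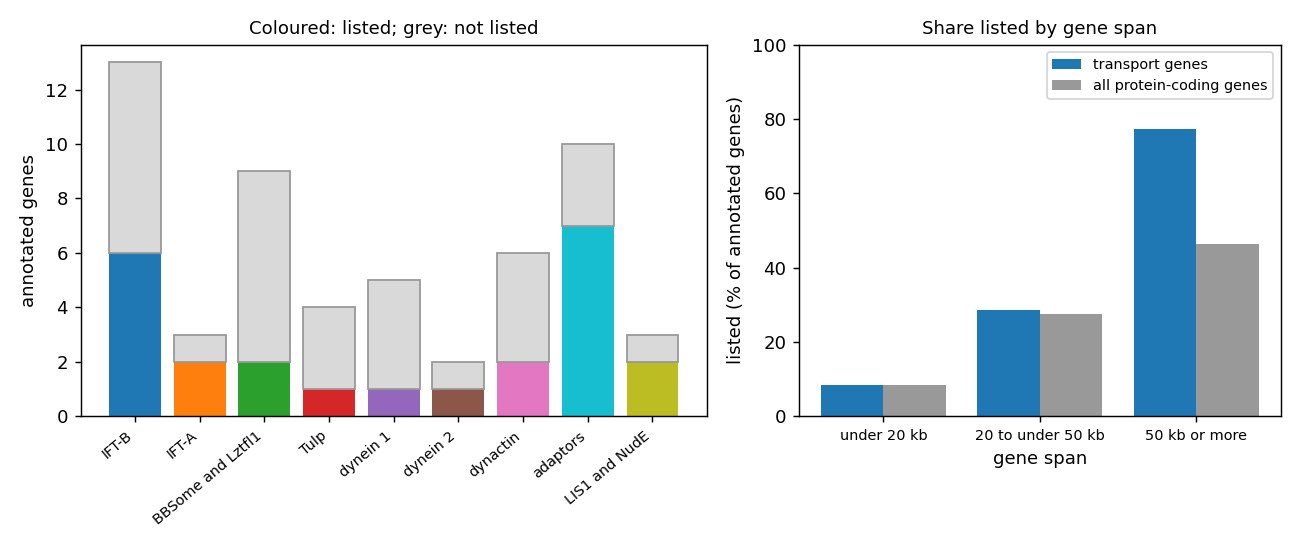
Left, number of annotated genes in each group that were listed (coloured) or not listed (grey). Right, percentage of annotated genes listed by gene span, for the transport genes (blue) and all protein-coding genes (grey). The span limits were set after seeing the data. The shares are close below 50 kb and are 77.3% and 46.2% at 50 kb or more.

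Other genes of the same pathways carry symbols outside the rule, and 24 of 59 in a list of them were listed, or 40.7%, where 21.3% of all protein-coding genes were. Of these 24, 19 had a log2 ratio above 1, or 79.2%, where 70.1% of all listed genes did. Their median log2 ratio was 1.76. All 5 kinesin-2 genes of this list, which encode the motor of outward IFT, were listed. *Kif3b* went from 72.9 to 345.2 CPM, a ratio of 4.74 (4.53 to 4.96), *Kif17* had 4.38 (4.24 to 4.52) and *Kif3a* 4.32 (3.83 to 4.88). The accessory subunit gene *Kifap3* had 2.36 (2.26 to 2.46) and *Kif3c* had 2.06 (1.48 to 2.91). The kinesin-2 motor genes *Kif3a*, *Kif3b* and *Kif17* therefore had ratios whose intervals overlapped those of *Ift74* and *Ift81* and lay above that of *Dync2h1*.

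In IFT-A, *Ttc21b* (the subunit IFT139) went from 48.2 to 143.3 CPM, a ratio of 2.97 (2.81 to 3.15), and *Wdr19* (IFT144) from 41.4 to 81.4 CPM, a ratio of 1.97 (1.84 to 2.10). Together with *Ift122* and *Ift140*, the 4 listed IFT-A genes ran from 1.97 to 3.08. *Wdr60*, which encodes an intermediate chain of dynein 2, had 11.8 and 65.4 CPM, a ratio of 5.54 (4.96 to 6.21), which was above that of the heavy chain *Dync2h1* with no overlap of their intervals. None of the 6 dynein light chain genes and none of the 5 further IFT-B genes in the list were listed, where 21.3% of all protein-coding genes were, and these numbers are too small to read further.

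The highest ratios near these pathways belonged to genes at their edge. *Cep290*, a transition zone gene of the ciliary base, was measured with 3.35 CPM in input RNA against 60.9 CPM after FMRP precipitation, a ratio of 18.2 (15.0 to 22.4). *Clip1*, a plus-end protein that recruits dynactin, had a ratio of 16.4 (15.3 to 17.7), and the Hook-related genes *Ccdc88a* and *Ccdc88c* had 15.8 (14.0 to 17.9) and 15.7 (14.5 to 17). Each of these 4 lay above all 24 genes of the symbol set, among which the highest upper limit was 8.26. The remaining adaptors *Spag9*, *Mapk8ip3*, *Rab11fip3*, *Spdl1* and *Nin* had ratios from 2.43 to 5.49, with only 31 input reads for *Spdl1* and 13 for *Nin*. *Arl13b* and *Inpp5e*, which encode a ciliary GTPase and the lipid phosphatase it retains, had 4.62 (3.95 to 5.42) and 4.2 (3.92 to 4.50). *Capza1*, whose protein caps the dynactin filament, had 3.60 (3.46 to 3.75) and *Nudcd1* had 2.77 (2.46 to 3.13). *Cep290* is also counted among the BBS genes outside the symbol rule, so these genes lay on both sides of *Bbs7*. The other listed ones, *Sdccag8*, *Mkks* and *Ttc8*, were at 1.80 (1.56 to 2.09), 1.81 (1.31 to 2.52) and 1.62 (1.26 to 2.10), all below the ratio of *Bbs7*.

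Of the 3 other microtubule families compared, kinesins had a lower median log2 ratio than the transport genes and the other 2 a higher one. The place of the kinesins depended on the pseudocount, since their median plain ratio was 3.56, against 2.98 for the transport genes. The median plain ratio was 3.45 for the axonemal dynein, radial spoke and CFAP genes and 4.26 for the tubulin and microtubule-associated genes. The 36 listed kinesin genes had a median log2 ratio of 1.46, with 80.6% above 1, and the 41 listed axonemal dynein, radial spoke and CFAP genes a median of 1.73, with 82.9% above 1. The 24 listed tubulin and microtubule-associated genes had a median of 2.01, with 79.2% above 1. The transport genes stood at 1.51 and 83.3%, and all listed genes at 1.35 and 70.1%. The range of the transport genes overlapped that of each of these families.

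**Figure D4:**
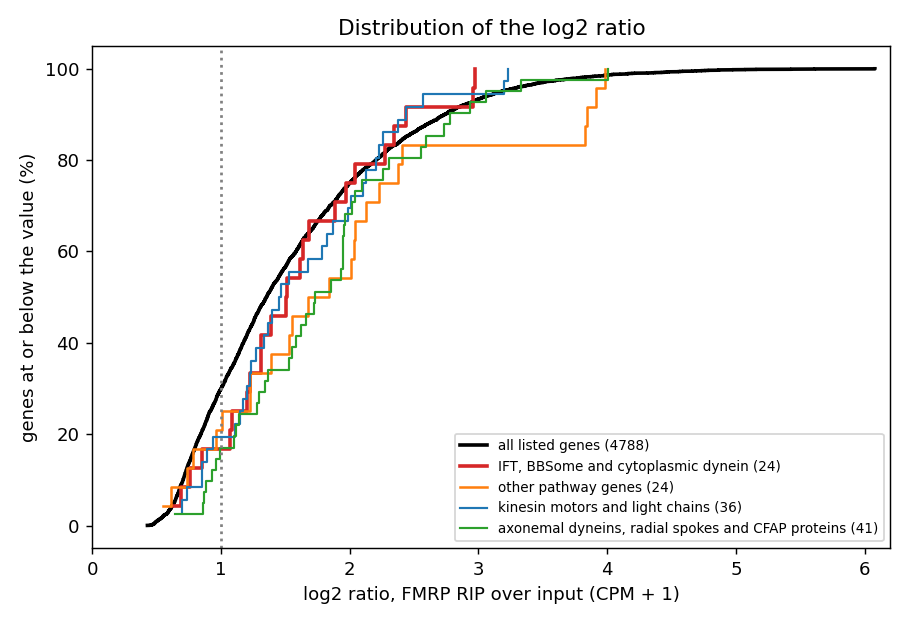
Cumulative percentage of genes against the log2 ratio (FMRP RIP over input, pseudocount of 1 CPM) for all listed genes (black), the transport genes (red), the other pathway genes (orange), kinesins (blue) and axonemal genes (green). The transport genes have a median of 1.51 against 1.35 for all listed genes and end at 2.98, whereas the other pathway genes reach 3.98.

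Sequence upstream of these genes was examined for the X-box, the binding motif of RFX factors that many ciliary genes carry. It is shown as a feature that the choice by symbol did not use, and RIP-seq does not measure it. The reference promoters (RefSeq, GRCm38.p6, from 250 bases before to 50 after each start) covered 45 of the 55 annotated genes. The paired motif arms GTNNCC and NGNAAC, 2 bases apart and read on both strands, were found in 8 of the 45, and in 2.49% of the 27025 genes with a promoter in the table. This form was kept after several spellings had been tried. With GTTNCC as the first arm, 3 of the 45 genes and 0.94% of all genes had a match. Of the 8 genes, *Bbs7*, *Ift57*, *Trak1* and *Tulp4* were listed and *Bbs1*, *Bbs4*, *Dctn3* and *Ift22* were not. The matches of the 4 listed genes are printed 5′ to 3′ on the strand of the gene, with the match in capitals, to show how the arms vary between genes. The match of *Bbs7* reads on both strands and the others on the strand opposite the gene.
Bbs7: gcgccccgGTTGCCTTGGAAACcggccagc
Ift57: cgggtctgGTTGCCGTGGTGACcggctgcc
Trak1: gctggtcaGTTTCTATGGCAACagttagat
Tulp4: agccctgtGTTCCTAGGGACACagggcc
The stretch of *Bbs7* lies at chr3:36613489-36613518 on the minus strand, that of *Ift57* at chr16:49699199-49699228, that of *Trak1* at chr9:121403295-121403324 and that of *Tulp4* at chr17:6138170-6138197, all 3 on the plus strand. The first matching base is 121 bases before an annotated start in *Bbs7*, 87 before the start of *Ift57*, 143 before an internal start in *Trak1* and 30 after an internal start in *Tulp4*. The listed genes with a match include both high and low recovery, from *Ift57* at 1.69-fold to *Tulp4* at 7.86-fold.

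Reads of neighbouring genes could enter some of these values. All 24 positions in the table overlapped the reference gene of the same symbol, 13 of the 24 spans held another annotated gene, and 4 held a protein-coding one. These were *Tmem204* at *Ift140*, *Lrrc19* at *Ift74*, *Nanp* at *Ninl* and *Dcun1d5* at *Dync2h1*, and whether the counting used strand is not given in the sources used here. Their part in the ratios was not tested.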

How the data were processed

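Wild-type adult testis gave 1 input and 1 FMRP RIP library, grouped by the treatment label. Per the labels, the authors aligned reads with STAR to GRCm38 (mm10). The counting tool is not given in the sources used here. The authors deposited CPM values for 4788 protein-coding genes that they had called higher with edgeR, which they ran. The columns with their fold changes and p-values were not used. Library totals were recovered from the step of the CPM values, which were whole multiples of 0.01 read. Of the values above 0, 78.4% (input) and 78.8% (FMRP RIP) were whole reads within 0.005 read. No count test was run, because each group had 1 library. For the input, 1 read equalled 0.0324 CPM, and for the FMRP RIP 0.0274 CPM.

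The log2 ratio used a pseudocount of 1 CPM, which understates the change of low genes. Intervals for single genes were exact Clopper-Pearson intervals at 95% from rounded reads, and those for a ratio between 2 genes used the normal approximation on the log scale. PCR reads are not independent molecules, so intervals cover counting error only. Every gene of the symbol rule is named, with 59 other pathway genes named where listed. Members and lists were chosen with earlier results of these data known. Symbols were matched to RefSeq directly or through a single synonym, which placed 4717 of the 4788 rows. Alternatives were other pseudocounts, a minimum level, other scalings and other sets of symbols. Functions were tested on simulated libraries. The software was scipy 1.17.1, pandas 2.3.3 and numpy 2.4.6 under Python 3.11.15, with matplotlib 3.10.9 for figures.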

Additional observations from a re-analysis of the deposited data

How the results depend on the processing

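The count of transport genes with a log2 ratio above 1 was 20, and between 18 and 24 under every alternative except centring on the median of all listed genes, which subtracts 1.35 and left 3 (*Dync1h1*, *Tulp4* and *Ninl*). The share of all listed genes above 1 moved as well. It was 51.7% with a pseudocount of 5 CPM (18 of the 24), 99.96% with scaling to reads on all other genes (24 of the 24) and 16.7% with centring. Under centring, 3 of the 24 was below the share of all listed genes, the reverse of the main setting. Scaling to reads on all other genes, which multiplies FMRP RIP values by 1.92, raised the median log2 ratio of the set to 2.43, of IFT-B to 2.36, of IFT-A to 2.35, of *Bbs7* with *Lztfl1* to 2.58, of dynactin to 1.97, of the adaptors to 2.82 and of LIS1 with NudE to 2.21. Centring gave 0.16 for the set, 0.10 for IFT-B, 0.055 for IFT-A, 0.30 for *Bbs7* with *Lztfl1*, -0.32 for dynactin, 0.54 for the adaptors and -0.055 for LIS1 with NudE. Of the 24 genes, 10 then lay below the median of the listed genes: *Bicd1* at -0.73, *Ift57* at -0.66, *Dctn2* at -0.59, *Hook3* at -0.50, *Ift140* at -0.15, *Ift172* at -0.043, *Nde1* at -0.27, *Bicdl1* at -0.29, *Dctn1* at -0.044 and *Dync2h1* at -0.13. A pseudocount of 5 CPM gave 1.47 for *Bbs7* with *Lztfl1*, 1.51 for the adaptors and 1.12 for LIS1 with NudE. These shifts follow from the construction of each setting. Of 144 single-gene values, 80 moved by less than the counting interval, 64 moved by more, and 10 of these changed sign, all under centring. With a pseudocount of 5 CPM, *Bicdl1* and *Nde1* also fell below the limit, and without one *Hook3* passed it. The log2 ratio of *Trak2* fell to 1.51 with 5 CPM. It then lay below those of *Trak1* and *Ift74*, both at 1.74, the reverse of the main setting. *Dync1h1* and *Tulp4* were the highest of the 24 in every setting. No paired analysis was possible because input and FMRP RIP are single libraries, and no replicate could be left out. Depth limits *Bicdl1* and *Trak2* most, with 46 and 84 input reads. The span classes were chosen after seeing the data.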
